A study of Mus musculus with 6 samples.

Results

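The genes described here are 43 genes of DNA crosslink repair and the DNA damage checkpoint, read in CD8+ T cells of mice given oxaliplatin. They were chosen by symbol: checkpoint kinases and the Fanconi, homologous recombination, nucleotide excision, mismatch and translesion genes. All 43 were found among the 16749 genes listed in at least 1 library, and each had counts in all 6 libraries. Of these, 42 passed the filter on low values that left 10890 genes for testing, and Fancf did not.

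The cells were isolated by cell sorting; their source was the iLN, an abbreviation of the submitters, of tumor-bearing C57BL/6 mice after oxaliplatin. The 3 WT libraries came from Id2f/f mice, which carry floxed Id2 and no Cre. The 3 ID2KO libraries came from Cd4creId2f/f mice, where Cre under the Cd4 promoter removes floxed Id2 in T cells, and both CD4 and CD8 lineages are affected because the promoter is active in their common thymic precursors. Both groups therefore carry the floxed alleles and both received the drug. Since only ID2KO mice carry Cre, its own effect and the loss of Id2 cannot be told apart, and untreated cells are not analysed here. Sex, age, dose and time are not given in the sources used here. The labels do not say whether libraries of a group came from separate animals, so p-values measure only the spread between these libraries, which may be technical.

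Oxaliplatin binds DNA and joins neighbouring guanines, mostly within a strand and less often between strands. Adducts within a strand are removed by nucleotide excision repair or bypassed by translesion polymerases. A crosslink between strands stops a replication fork, where the Fanconi core complex attaches ubiquitin to FANCD2 and FANCI, nucleases cut the crosslink out, and homologous recombination rebuilds the broken arm. The kinases ATM and ATR report the damage to CHK2 and CHK1, which hold the cell cycle. Many Fanconi and recombination genes are transcribed mainly in S phase, whereas most nucleotide excision genes are transcribed in resting cells too.

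The libraries held 7699181 to 8495123 expected counts each. Id2 itself was at 146.76 to 370.98 FPKM (fragments scaled to transcript length and library size) in WT and at 1.67 to 2.64 in ID2KO. The 7 CD8 T cell markers were present in all libraries, with a summed level of 2840 to 3340 FPKM in WT and 2750 to 3570 in ID2KO. The summed level of the 15 listed B cell markers was 944, 3160 and 3690 FPKM in WT replicates 1 to 3 and 698, 3010 and 627 in ID2KO replicates 1 to 3. ID2KO replicate 2 and WT replicates 2 and 3 thus had higher summed B cell marker levels than the others. Fold changes are ID2KO over WT, from the quasi-likelihood test of edgeR over all genes tested, with p-values adjusted by Benjamini-Hochberg and a threshold of 0.05.

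Of the 42 tested, 8 were lower in ID2KO cells (19%) and 1 was higher (2.38%). Over all genes tested the shares were 8.77% lower and 3.14% higher. The 8 lower genes were Chek1, Fanca, Fancd2, Brca1, Rad51ap1, Rad54l, Rad54b and Exo1, with falls between 1.88-fold and 7.41-fold, and the higher gene was Atm. In the edgeR fit 0 of the 6 nucleotide excision genes and 0 of the 3 translesion genes passed the threshold. At an unadjusted p under 0.05 each group had 1 gene (Ercc2 and Polh). DESeq2 called Ercc2 and not Polh (adjusted p = 0.0903), and limma called neither. The median log2 fold change of the 42 genes was -0.3, beside 0.01 over all genes tested, and 76.2% of them had a negative value, beside 48.1%.

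For 16 of the 42 genes (38.1%) the 3 ID2KO libraries all lay below the 3 WT libraries, and for 4 (9.52%) they all lay above. Such separation was found for 16.8% of all genes tested in the lower direction and 15.3% in the higher. All 8 genes that fell were among the 16. Exo1 passed the filter on low values through its WT level only, since it stayed under 1 FPKM in each ID2KO library. For Chek1, Fancd2, Brca1, Rad54l and Rad54b only 1 ID2KO library reached 1 FPKM, so these too needed WT libraries to pass. With a filter on the mean of all libraries in place of the count of libraries, 41 genes were tested and 8 were lower.

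**Figure D1:**
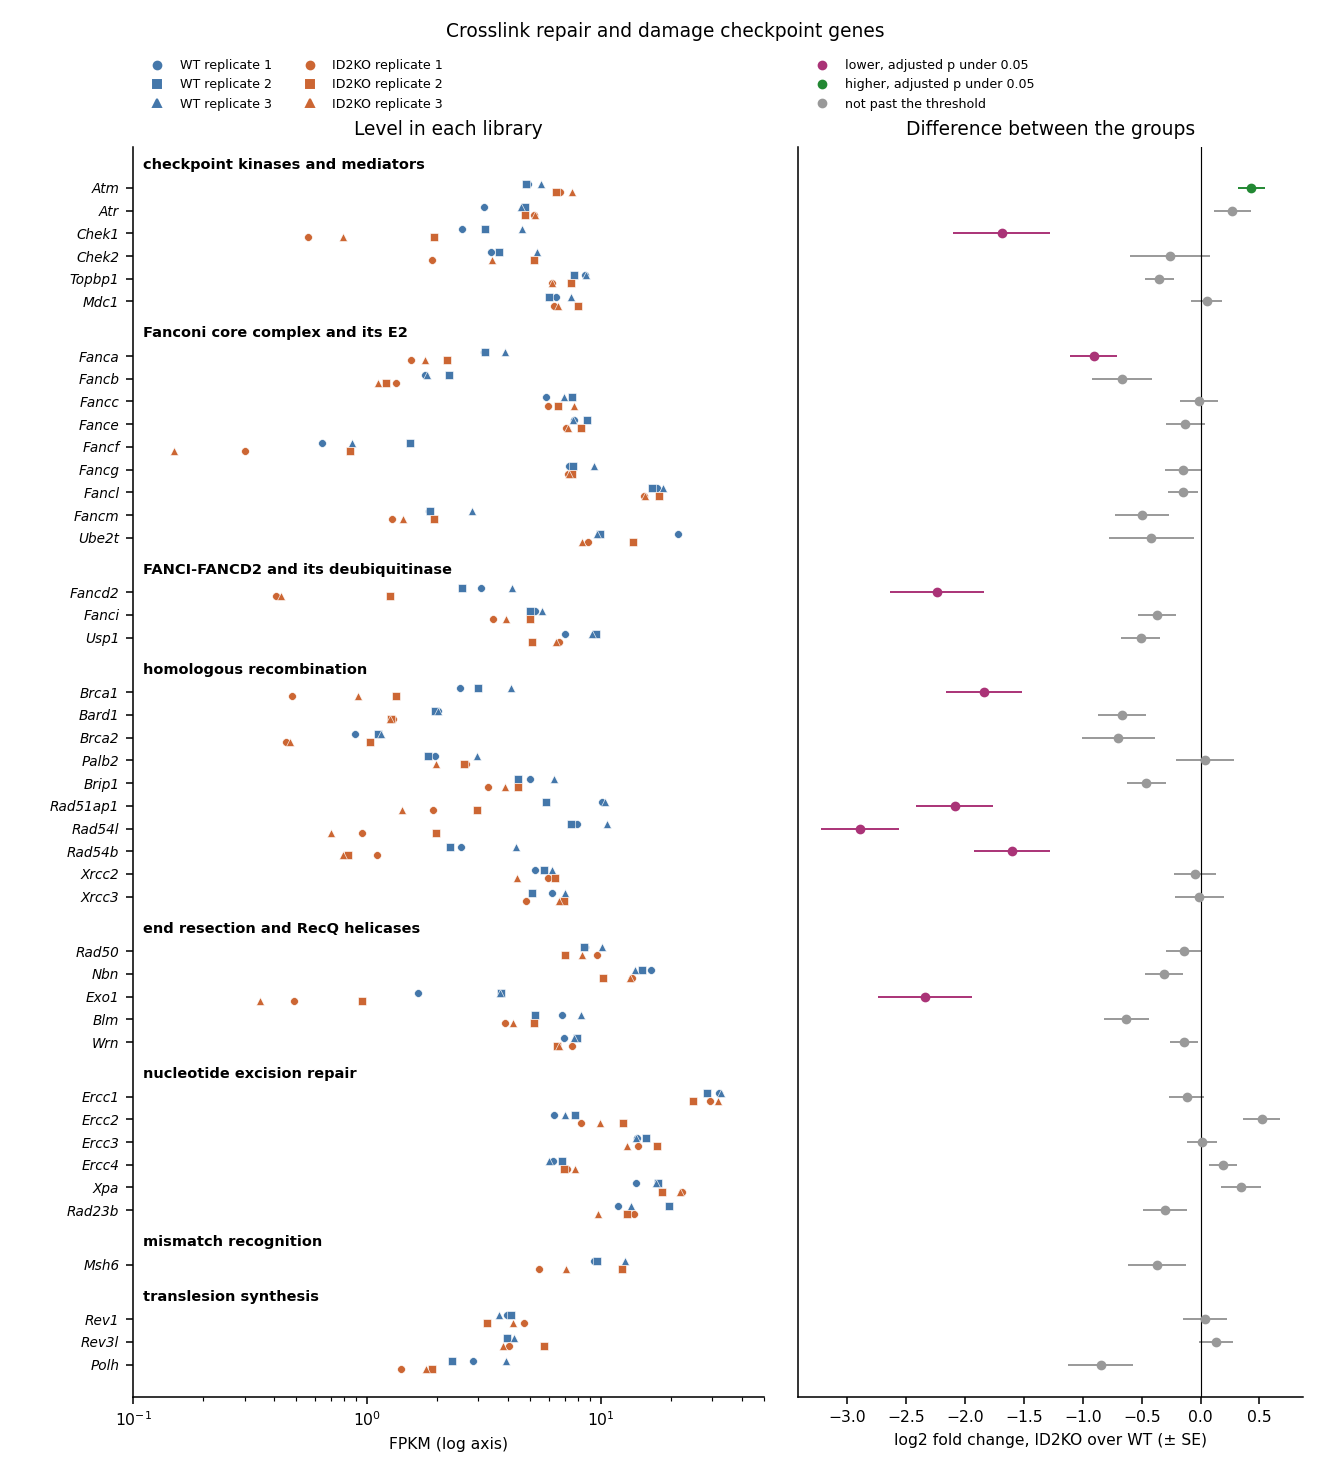
Left, FPKM (log axis) of each of the 43 genes in each library, ordered by role, with WT in blue and ID2KO in orange and marker shapes for replicates. Right, log2 fold change of ID2KO over WT with its standard error for the 42 tested genes. Rad54l, Exo1, Fancd2, Rad51ap1 and Brca1 lie farthest to the left, and the nucleotide excision genes lie between -0.3 and 0.52.

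Promoters are shown for the 4 genes with the smallest p that have an entry in the promoter table, and for Atm, which was added after its value was seen because it was the gene that rose. Each runs 5' to 3' on the gene's own strand, from 250 bases before the start site over 50 bases from it on, in RefSeq's GRCm38.p6 (mm10). The windows are chr4:116123641-116123940, chr6:126939538-126939837, chr11:101551906-101552205, chr8:123318527-123318826 and chr9:53536622-53536921, all on the minus strand. Capitals mark GCGGGAA (a core of sites bound by E2F factors, which drive S phase genes), the E-boxes CAGGTG and CAGCTG (which E proteins can bind) and CCAAT, each on either strand, and no matches overlap in the sequences shown.
Rad54l: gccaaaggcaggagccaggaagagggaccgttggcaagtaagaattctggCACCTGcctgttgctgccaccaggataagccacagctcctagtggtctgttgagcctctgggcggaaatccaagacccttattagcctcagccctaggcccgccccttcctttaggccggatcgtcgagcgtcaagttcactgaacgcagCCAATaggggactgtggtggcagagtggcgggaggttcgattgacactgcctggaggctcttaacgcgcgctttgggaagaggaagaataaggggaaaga
Rad51ap1: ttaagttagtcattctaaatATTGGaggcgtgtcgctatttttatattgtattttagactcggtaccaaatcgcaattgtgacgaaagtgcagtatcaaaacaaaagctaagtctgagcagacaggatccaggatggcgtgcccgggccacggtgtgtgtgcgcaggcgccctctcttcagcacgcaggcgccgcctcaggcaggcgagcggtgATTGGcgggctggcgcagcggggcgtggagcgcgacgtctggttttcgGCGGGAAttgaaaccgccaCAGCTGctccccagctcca
Brca1: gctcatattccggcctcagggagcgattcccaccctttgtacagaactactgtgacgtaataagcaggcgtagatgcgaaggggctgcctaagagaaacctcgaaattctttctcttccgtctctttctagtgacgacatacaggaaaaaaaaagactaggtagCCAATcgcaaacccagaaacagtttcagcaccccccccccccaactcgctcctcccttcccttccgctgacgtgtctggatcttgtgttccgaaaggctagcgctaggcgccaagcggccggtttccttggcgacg
Fanca: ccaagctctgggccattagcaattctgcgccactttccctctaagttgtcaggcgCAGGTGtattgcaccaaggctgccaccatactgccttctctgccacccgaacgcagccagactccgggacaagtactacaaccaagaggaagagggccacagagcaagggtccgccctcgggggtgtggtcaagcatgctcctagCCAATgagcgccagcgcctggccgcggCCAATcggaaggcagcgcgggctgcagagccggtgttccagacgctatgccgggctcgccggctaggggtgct
Atm: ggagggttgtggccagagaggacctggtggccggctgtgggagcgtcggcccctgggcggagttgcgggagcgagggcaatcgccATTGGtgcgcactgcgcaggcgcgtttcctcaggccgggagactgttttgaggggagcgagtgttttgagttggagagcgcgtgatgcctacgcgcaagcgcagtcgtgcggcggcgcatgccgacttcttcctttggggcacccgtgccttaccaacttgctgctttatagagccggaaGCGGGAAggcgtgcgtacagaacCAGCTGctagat
Of the 43 genes 33 had an entry. GCGGGAA was in 13 of these 33 promoters (39.4%), beside 4.66% of 27025 promoters of all genes. Those 27025 include genes that were not tested or listed in these libraries, so the 2 sets are not alike in expression. Among the lower genes with an entry it was in 2 of 5 (Chek1 and Rad51ap1), and among the other genes in 11 of 28, Atm and Mdc1 among them. The letters were present both in genes that fell and in genes that did not. CAGGTG was in 2 promoters, those of Fanca and Rad54l (6.06%, beside 20% of all), CAGCTG in 4 (12.1%, beside 16.1%) and CCAAT in 22 (66.7%, beside 37.9%). A match is a description of letters, not a binding site, and the motifs were chosen after some of the promoters had been read.

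Homologous recombination genes held the largest share of falls, 4 of 10. Rad54l (chr4:116094261-116123700) encodes a DNA-dependent motor protein that acts during strand exchange. Its level was 7.95, 7.49 and 10.64 FPKM in WT and 0.95, 1.98 and 0.7 in ID2KO, or -2.89 on the log2 scale (SE 0.332, adjusted p = 0.00053). The groups lay far apart, with the highest ID2KO library at under 2 FPKM. Rad54l shares 1184 exon bases with Lrrc41 on the opposite strand, and Lrrc41 was at 15.3 ± 2.34 FPKM (SD, n = 3) in WT and 16.4 ± 1.62 in ID2KO. Rad51ap1 (chr6:126923415-126939621) encodes a protein of strand exchange that binds branched DNA. It was at 10.14, 5.84 and 10.43 FPKM in WT and 1.91, 2.97 and 1.41 in ID2KO (log2 fold change -2.09, SE 0.33, adjusted p = 0.00292). WT replicate 2 was the low one of its group and still lay above all ID2KO libraries.

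Brca1 (chr11:101488761-101551955) encodes a ubiquitin ligase subunit that promotes end resection and brings in PALB2 and BRCA2. Its level fell from 2.51, 3 and 4.14 FPKM to 0.48, 1.33 and 0.92 (log2 fold change -1.84, SE 0.32, adjusted p = 0.00512). Bard1, the obligate partner of Brca1, was at 2.02, 1.95 and 2.01 FPKM in WT and 1.29, 1.27 and 1.25 in ID2KO, and narrowly missed the threshold (log2 fold change -0.67, SE 0.202, adjusted p = 0.0587). Its groups did not overlap, and the values within each group were close together. Rad54b, a relative of Rad54l, was at 2.53, 2.26 and 4.36 FPKM in WT and 1.11, 0.83 and 0.79 in ID2KO (log2 fold change -1.6, SE 0.324, adjusted p = 0.0108). Its call ended without ID2KO replicate 3 (adjusted p = 0.0569) or WT replicate 3 (0.054). Rad54b shares 2068 exon bases on the same strand with Fsbp, so the authors' division of reads between them is uncertain. Fsbp itself was at or under 0.95 FPKM in every library.

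Brca2, a mediator of strand exchange, was among the least abundant genes, at 0.89, 1.12 and 1.15 FPKM in WT and 0.45, 1.03 and 0.47 in ID2KO. ID2KO replicate 2 reached the WT range while the other ID2KO libraries lay below it. The log2 fold change was -0.7 (SE 0.31, adjusted p = 0.178), and without ID2KO replicate 2 it was -1.16 (adjusted p = 0.0137). Palb2, the bridge between BRCA1 and BRCA2, had a log2 ratio of ID2KO to WT of 0.04 (SE 0.245, adjusted p = 0.942). Brip1, a helicase bound to BRCA1, had one of -0.46 (SE 0.165, adjusted p = 0.106), with ID2KO libraries at 3.28 to 4.41 FPKM and WT libraries at 4.42 to 6.28. The recombination genes Xrcc2 and Xrcc3 had values of -0.05 (SE 0.177, adjusted p = 0.895) and -0.01 (SE 0.206, adjusted p = 0.982), with overlapping groups.

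In the Fanconi pathway the changes were uneven. Fancd2 (chr6:113531640-113597020), which encodes one of the pair of proteins that receive ubiquitin, fell from 3.06, 2.55 and 4.18 FPKM to 0.41, 1.26 and 0.43. Its log2 fold change was -2.24 (SE 0.399, adjusted p = 0.00566), and -2.94 without ID2KO replicate 2, the highest of its group. Fanci, which encodes the partner of FANCD2, was at 5.25, 4.98 and 5.59 FPKM in WT and 3.45, 5 and 3.95 in ID2KO, with groups that overlapped in ID2KO replicate 2 (log2 fold change -0.37, SE 0.164, adjusted p = 0.176). Fanci shares 16% of its exon bases with Polg on the opposite strand. Usp1, whose product takes the ubiquitin off again, was at 7.04, 9.56 and 9.16 FPKM in WT and 6.63, 5.09 and 6.41 in ID2KO (log2 fold change -0.51, SE 0.169, adjusted p = 0.0809).

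Of the 8 tested genes of the core complex and its ubiquitin-conjugating enzyme, Fanca (chr8:123266294-123318651) was lower, at 3.17, 3.2 and 3.9 FPKM in WT and 1.55, 2.21 and 1.77 in ID2KO. Its log2 fold change was -0.91 (SE 0.203, adjusted p = 0.017), and the call ended without ID2KO replicate 1 (0.0655), ID2KO replicate 3 (0.0794) or WT replicate 3 (0.0784). Fanca shares 920 exon bases with Zfp276 on the opposite strand, which was at 5.6 ± 0.493 FPKM in WT and 7.6 ± 0.558 in ID2KO. Fancl, the ubiquitin ligase of the complex, did not separate the groups, at 16.57 to 18.5 FPKM in WT and 15.25 to 17.76 in ID2KO (log2 fold change -0.15, SE 0.128, adjusted p = 0.494). The subunit genes Fancc, Fance and Fancg lay between -0.15 and -0.01 on the log2 scale (adjusted p = 0.582 to 0.987), all with overlapping groups. On the opposite strand Fancl shares 13.7% of its exon bases with Vrk2, and Fancc 16.4% with the antisense gene Gm16133.

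Fancb had a log2 ratio of ID2KO to WT of -0.67 (SE 0.253, adjusted p = 0.118), with ID2KO libraries at 1.12 to 1.33 FPKM below WT libraries at 1.78 to 2.25. Fancm, the DNA translocase that anchors the complex, had one of -0.5 (SE 0.228, adjusted p = 0.187). Ube2t, the ubiquitin-conjugating enzyme gene, was at 21.4, 9.89 and 9.61 FPKM in WT and 8.83, 13.78 and 8.29 in ID2KO. WT replicate 1 and ID2KO replicate 2 stood high in their groups, and the groups overlapped (log2 fold change -0.42, SE 0.36, adjusted p = 0.499). Without WT replicate 1 the value turned to 0.18 (adjusted p = 0.712). Fancf, a small subunit of the complex, had 43 counts in WT and 17 in ID2KO in all and was at 0.64, 1.53 and 0.86 against 0.3, 0.85 and 0.15 FPKM. It shares 15% of its exon bases with Gas2 on the opposite strand. In the fit without a filter its log2 fold change was -1.21 (SE 0.631, adjusted p = 0.284).

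Among the checkpoint genes Atm and Chek1 moved in opposite directions. Atm (chr9:53437122-53536828), the kinase gene that responds to double-strand breaks, was at 4.87, 4.78 and 5.56 FPKM in WT and 6.7, 6.44 and 7.56 in ID2KO. All ID2KO libraries lay above all WT libraries (log2 fold change 0.43, SE 0.116, adjusted p = 0.0374). The rise was 1.35-fold, and its call was kept in 1 of the 6 fits that left out a library, the one without ID2KO replicate 2. Its log2 fold change in the others was 0.37 to 0.49, with adjusted p = 0.0784 and 0.163 without ID2KO replicates 1 and 3 and 0.0776, 0.115 and 0.0611 without WT replicates 1 to 3. By limma on log2(FPKM + 1) the adjusted p was 0.105.

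Chek1 (chr9:36708482-36726658), which encodes the effector kinase of ATR, was at 2.56, 3.19 and 4.62 FPKM in WT and 0.56, 1.94 and 0.79 in ID2KO. The groups did not overlap, and ID2KO replicate 2 stood closest to WT (log2 fold change -1.69, SE 0.411, adjusted p = 0.0255). Without that library the log2 fold change was -2.36, and the call ended without ID2KO replicate 1 (0.0794), ID2KO replicate 3 (0.119), WT replicate 2 (0.0515) or WT replicate 3 (0.112). Chek2, the effector kinase gene of the ATM branch, was at 3.38, 3.68 and 5.35 FPKM in WT and 1.89, 5.17 and 3.42 in ID2KO (log2 fold change -0.26, SE 0.339, adjusted p = 0.668). Its ID2KO libraries were spread over a wider range than its WT libraries.

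Atr, the kinase gene of stalled forks, had a log2 ratio of ID2KO to WT of 0.27 (SE 0.154, adjusted p = 0.292), and Mdc1, a scaffold at breaks, one of 0.05 (SE 0.13, adjusted p = 0.825). Topbp1, which encodes the activator of ATR, was at 8.52, 7.66 and 8.67 FPKM in WT and 6.19, 7.45 and 6.16 in ID2KO. Its groups did not overlap, by a small margin, and the value did not pass (log2 fold change -0.35, SE 0.126, adjusted p = 0.108).

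Of the resection and helicase genes Exo1 fell. Exo1 (chr1:175880768-175911396), an exonuclease gene of long-range resection and mismatch repair, was at 1.65, 3.73 and 3.69 FPKM in WT and 0.49, 0.95 and 0.35 in ID2KO (log2 fold change -2.34, SE 0.398, adjusted p = 0.00448). This was 425 expected counts in WT and 78 in ID2KO over the 3 libraries of each. Rad50 and Nbn, subunit genes of the complex that opens resection, were at -0.14 (SE 0.15, adjusted p = 0.603) and -0.31 (SE 0.159, adjusted p = 0.247). The groups of Nbn did not overlap, at 14.04 to 16.38 FPKM in WT and 10.17 to 13.6 in ID2KO.

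Blm, a RecQ helicase gene that dissolves recombination intermediates, was at 6.85, 5.21 and 8.23 FPKM in WT and 3.9, 5.18 and 4.2 in ID2KO. It narrowly missed the threshold (log2 fold change -0.63, SE 0.191, adjusted p = 0.061). The adjusted p was 0.0454 without ID2KO replicate 2 and 0.0185 without WT replicate 2, at log2 fold changes of -0.73 and -0.8, and 0.0335 by DESeq2. Its relative Wrn was at 6.97 to 7.93 FPKM in WT and 6.48 to 7.5 in ID2KO, with no separation (log2 fold change -0.14, SE 0.117, adjusted p = 0.485).

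The nucleotide excision genes did not pass in either direction in the edgeR fit. Ercc1, the most abundant of the 43 genes and a subunit gene of the nuclease that cuts on the 5' side of a lesion and also works on crosslinks, was at 31.89, 28.42 and 32.77 FPKM in WT and 29.41, 24.88 and 31.59 in ID2KO (log2 fold change -0.12, SE 0.145, adjusted p = 0.632). Its catalytic partner gene Ercc4 was at 5.98 to 6.83 FPKM in WT and 6.96 to 7.78 in ID2KO (log2 fold change 0.19, SE 0.116, adjusted p = 0.338). The fold changes were 1.09 and 1.14, and the ID2KO libraries of Ercc4 lay just above WT.

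Ercc2, a helicase subunit gene of TFIIH, was at 6.29, 7.75 and 7.03 FPKM in WT and 8.25, 12.48 and 9.94 in ID2KO. All ID2KO libraries were above WT, with replicate 2 the highest (log2 fold change 0.52, SE 0.158, adjusted p = 0.0593). The adjusted p was 0.038 by DESeq2 and 0.0371 without ID2KO replicate 1, at a log2 fold change of 0.66. Ercc2 shares 1025 exon bases (24.6%) with the antisense gene Gm26852 and 744 with Klc3, also on the opposite strand, which was at 3.78 ± 0.354 FPKM in WT and 5.79 ± 0.668 in ID2KO. The other TFIIH helicase gene, Ercc3, had a log2 ratio of ID2KO to WT of 0.01 (SE 0.13, adjusted p = 0.984). Xpa, which encodes the protein that verifies damage, was at 14.11, 17.63 and 17.15 FPKM in WT and 22.16, 18.24 and 21.76 in ID2KO, without overlap and without passing (log2 fold change 0.34, SE 0.171, adjusted p = 0.235). Rad23b, a partner of the damage sensor XPC, had one of -0.3 (SE 0.187, adjusted p = 0.335).

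Msh6, the mismatch recognition subunit gene, was at 9.32, 9.66 and 12.63 FPKM in WT and 5.43, 12.28 and 7.08 in ID2KO. ID2KO replicate 2 stood within the WT range and the others below it (log2 fold change -0.37, SE 0.248, adjusted p = 0.371). Without that library the value was -0.74 (adjusted p = 0.0224). Of the translesion genes, Polh, whose product bypasses platinum adducts within a strand, was at 2.85, 2.31 and 3.94 FPKM in WT and 1.4, 1.9 and 1.79 in ID2KO. Its groups did not overlap and it did not pass (log2 fold change -0.85, SE 0.279, adjusted p = 0.0791). Rev1 and Rev3l, genes of the scaffold and the catalytic subunit that extend past crosslinks, were at 0.04 (SE 0.188, adjusted p = 0.925) and 0.13 (SE 0.147, adjusted p = 0.619). Rev1 shares 26.6% of its exon bases with Eif5b on the opposite strand.

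Ratios within a library were read for 5 pairs of genes whose products work together or in parallel. The ratio of Fancd2 to Fanci in FPKM was 0.583, 0.512 and 0.748 in WT and 0.119, 0.252 and 0.109 in ID2KO, a difference of -2.03 in mean log2 ratio. The ratio of Brca1 to Bard1 was 1.24, 1.54 and 2.06 against 0.372, 1.05 and 0.736 (difference -1.26), and that of Chek1 to Chek2 0.757, 0.867 and 0.864 against 0.296, 0.375 and 0.231 (difference -1.49). In these 3 pairs no ID2KO library reached the lowest WT ratio. Ercc4 to Ercc1 was at 0.182 to 0.24 in WT and 0.244 to 0.28 in ID2KO (difference 0.32), and Atm to Atr overlapped (difference 0.14). The pairs were chosen after their values were seen, so these ratios are a description and no test is given.

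**Figure D2:**
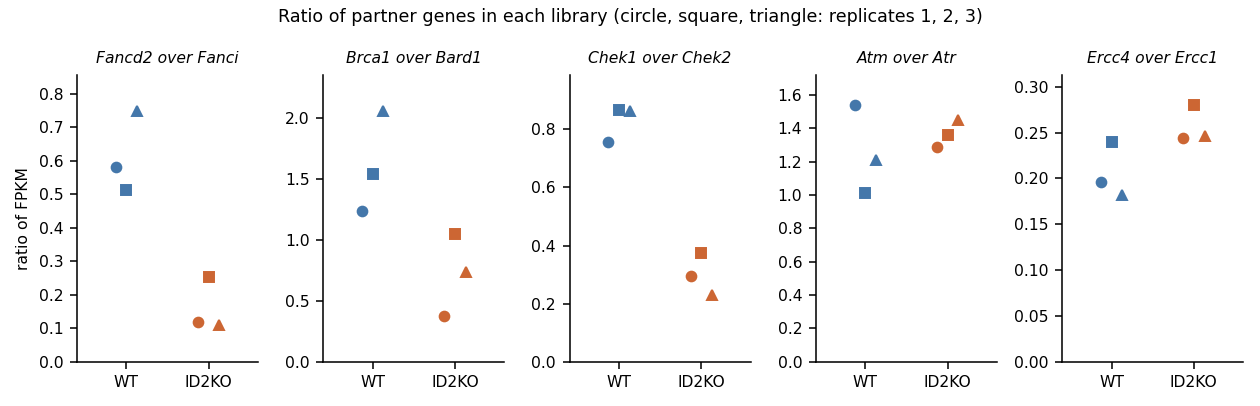
Ratio of FPKM within each library for 5 gene pairs, with WT in blue, ID2KO in orange and marker shapes for replicates. The ratios Fancd2 to Fanci, Brca1 to Bard1 and Chek1 to Chek2 are lower in all ID2KO libraries, and Atm to Atr overlaps.

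Other genes of the repair pathways were read in the same fit. A list of 61 further repair genes had 60 tested, with 9 lower (15%) and 2 higher (3.33%), and a median log2 fold change of -0.09. Over all genes tested 8.77% were lower and 3.14% higher, so the share of rises was near that of all genes. Recombination genes held 5 of the 9 falls among 13 tested, the checkpoint genes 2 of 10 (Clspn and H2ax) and the Fanconi genes 2 of 9 (Eme1 and Rfwd3). Clspn, Dna2, H2ax, Rad51c and Rpa2 were among the 6 with the smallest p. Clspn, which encodes the adaptor between ATR and CHK1, went from 3.76, 3.97 and 4.84 FPKM to 1.53, 1.59 and 1.53 (log2 fold change -1.45, adjusted p = 0.000742). Every ID2KO library lay below every WT library.

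The nuclease gene Dna2 fell by 1.93 on the log2 scale, the damage histone gene H2ax by 0.83, Rad51c by 2.24 and Rpa2, a subunit gene of the single-strand binding protein, by 0.68. Rad51c was under 1 FPKM in each ID2KO library and passed the filter through WT only. With the filter on the mean of all libraries it was not tested, and 8 of 59 further repair genes were lower. Rpa2 lost its call without ID2KO replicate 3 (0.0612) or WT replicate 3 (0.0525). The 2 that rose were Prkdc, the kinase gene of end joining (4.5, 4.77 and 5.57 to 6.2, 8.39 and 7.51 FPKM, log2 fold change 0.56, adjusted p = 0.0173), and Ercc6, of transcription-coupled repair (5.34, 5.78 and 5.62 to 7.26, 8.5 and 6.85 FPKM, log2 fold change 0.42, adjusted p = 0.0335). Prkdc lost its call without ID2KO replicate 3 (0.0758) or WT replicate 2 (0.0604), and in limma with a pseudocount of 1 (0.0772). Ercc6 lost it in each of the 6 fits without 1 library (0.0607 to 0.104) in limma with a pseudocount of 1 (0.11) and with the replicate number as a block (0.0525).

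**Figure D3:**
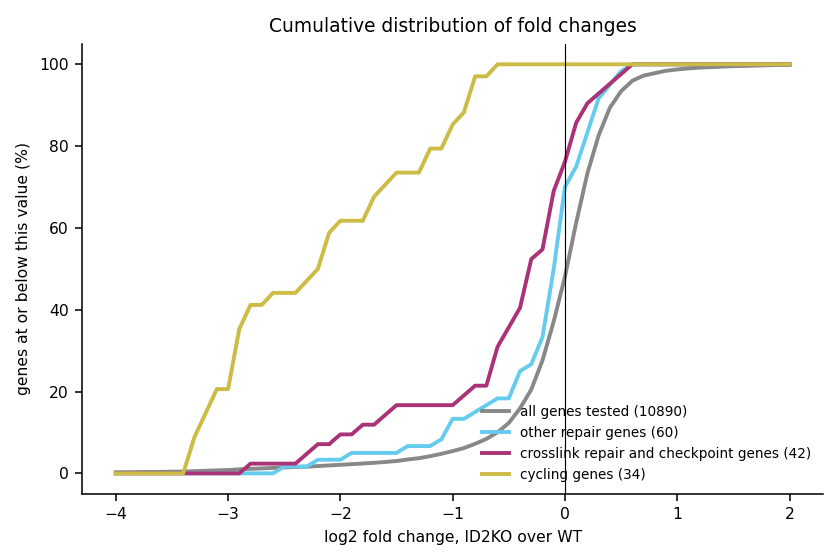
Share of genes (percent) at or below each log2 fold change of ID2KO over WT, for all 10890 genes tested, the 42 repair and checkpoint genes, 60 further repair genes and 34 cycling genes. At -1 the curves stand at 16.7% for the repair and checkpoint genes, 13.3% for the further repair genes and 5.45% for all genes, and the curve of the cycling genes lies farthest left, with a median of -2.2.

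Genes of cycling cells moved with the falls. All 34 listed genes of S phase and mitosis were lower, beside 8.77% of all genes tested. The list was chosen with earlier results of these data known. Median log2 fold changes were -1.72 for the 18 of S phase and -2.93 for the 16 of mitosis. The summed level of the S phase genes was 1160, 1060 and 1420 FPKM in WT and 444, 597 and 420 in ID2KO, and that of the mitosis genes 495, 433 and 677 against 82.7, 144 and 77.5. In bulk RNA, fewer cycling cells and less RNA per cell cannot be told apart. The 10 recombination genes summed to 44.4, 38.7 and 55.2 FPKM in WT and 22.9, 29.7 and 22.4 in ID2KO. The 6 nucleotide excision genes summed to 84.7, 95.8 and 90.5 against 95.3, 92.9 and 93.7.

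WT replicate 3 was the highest WT library for 34 of 34 cycling genes, for 7 of the 8 repair genes that fell and for 26 of the 42 tested. ID2KO replicate 2 was the highest ID2KO library for the same numbers of genes, 34, 7 and 26. These 2 libraries also had the highest B cell marker level of their groups. How often they were the highest of their group over all genes tested was not counted. In a fit with the B cell marker level as covariate, 9 repair genes were lower and 1 higher, with Nbn added at -0.5 (adjusted p = 0.042), Ercc2 past the threshold as the higher gene (0.65, adjusted p = 0.0209) and Atm not (0.0935). Without ID2KO replicate 2 the number of lower genes was 11, the 8 above with Brca2, Blm and Msh6. It was 6 without ID2KO replicate 1 and 5 without ID2KO replicate 3 or WT replicate 3.

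Of 5 germinal centre B cell markers 1 was tested, and the summed level of the list was 3.02 to 5.37 FPKM in WT and 2.45 to 4.02 in ID2KO, with Rgs13 at 0 in 3 libraries. The plasma cell markers summed to 31.4 to 53.9 FPKM in WT and 17.1 to 27.5 in ID2KO, with 2 of 5 lower (Jchain and Prdm1). Sdc1, Irf4 and Mzb1 did not pass the threshold. The dendritic cell markers summed to 23.6 to 26.6 against 3.63 to 6.73 FPKM. Itgax, Zbtb46 and Batf3 were lower of 4 tested, with Itgax and Batf3 past the filter through WT only. Xcr1 did not pass the threshold, at a mean of 2.97 FPKM in WT and 2.81 in ID2KO. Flt3 and Siglech, under the filter, were at 0.257 and 0.27 in WT and 0.187 and 0.523 in ID2KO. Of the NK cell markers Gzma was lower, at a mean of 893 FPKM in WT and 34.2 in ID2KO. Nkg7 was at 1440 and 1060, Klrd1 at 119 and 109 and Eomes at 6.02 and 8.8, none past the threshold, Klrb1c was under 1 FPKM in both means, and Ncr1 was at 0 in WT and 0.117 in ID2KO. The monocyte, macrophage and neutrophil markers summed to 21.7 to 36.3 against 27.6 to 32.7 FPKM, most of it Lyz2 (means 22.6 and 27.8). Of 2 tested, 0 passed the threshold in edgeR and 1, Itgam, had an unadjusted p under 0.05. Itgam was at 7.91, 1.18 and 1.09 FPKM in WT and 0.37, 0.72 and 0.62 in ID2KO (adjusted p = 0.0521). It passed the filter through WT only, and WT replicate 1 was its highest library. Of the CD4 and regulatory T cell markers Ctla4 was higher (mean 58.2 and 82.3 FPKM), as was Ikzf2 (0.74 and 1.87), which passed the filter through ID2KO only. Cd4 was at 2.36 and 1.48 FPKM, Foxp3 at 3.55 and 3.65 and Cd40lg at 4.34 and 4.3, none past the threshold, and Zbtb7b, under the filter, was at 0.637 and 0.193. CD8 T cells may express some of these genes themselves, so the levels do not show which cells held this RNA. The part of other cells in the levels of the repair genes was not tested.

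**Figure D4:**
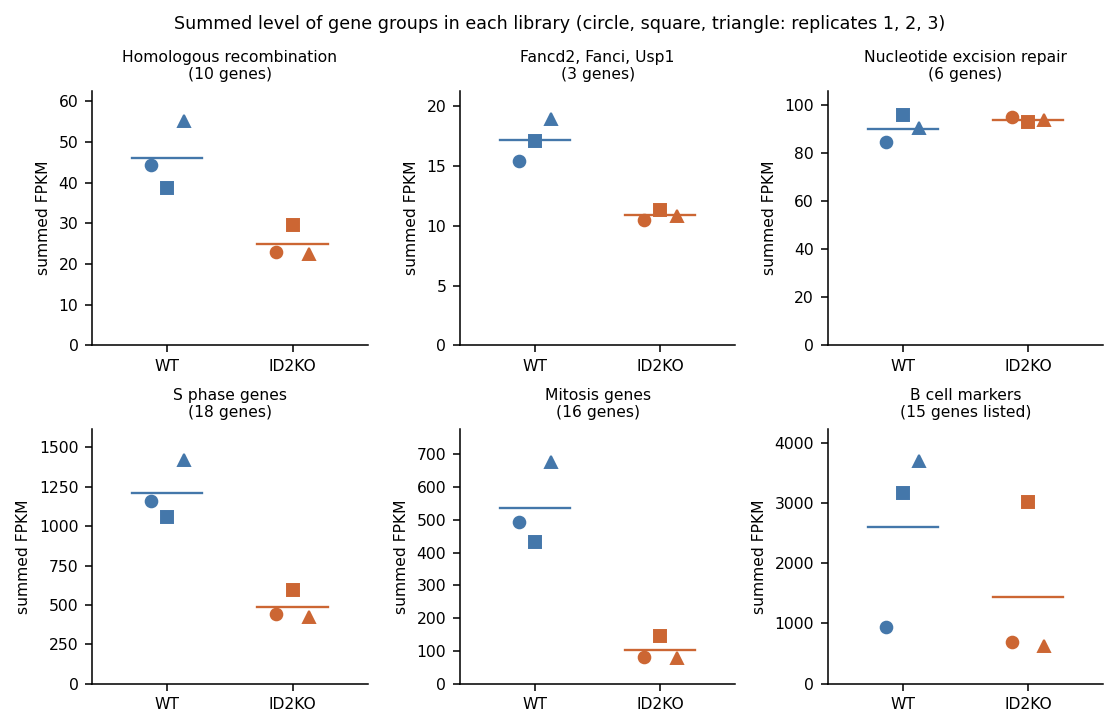
Summed FPKM in each library for 3 groups of repair genes, 2 groups of cycling genes and the B cell markers, with a line at the mean of each group and marker shapes for replicates. The recombination, Fancd2 and cycling panels have all ID2KO libraries below WT, and the nucleotide excision panel does not. In the B cell panel ID2KO replicate 2 lies above the other ID2KO libraries and WT replicate 1, and below WT replicates 2 and 3.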

How the data were processed

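Total RNA of sorted CD8+ T cells was sequenced from 3 WT and 3 ID2KO samples. CASAVA, Bowtie2 and RSEM, with the mm10 build, are listed without versions in the submitters' processing notes. The deposited tables hold an expected count, a transcript length and an FPKM value per gene, per the file headers. Expected counts were deposited by the authors as estimates that divide reads among genes and isoforms, and 25.0% to 26.2% of them per library were not whole. FPKM values were computed by the authors and are per length and library size. Whether strand was used in counting is not stated in those notes or headers. It is thus not known whether reads in exon bases shared on opposite strands were assigned to the right gene.

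Tables were joined by gene number, and a gene missing from a table was taken as 0. Symbols came from RefSeq's GRCm38.p6, which named 16707 of 16749 numbers. Expected counts were rounded, scaled by TMM and tested with edgeR 4.0.16 (R 4.3.3), two-sided, on genes that reached 1 FPKM in 3 or more of the 6 libraries. Exon overlaps were taken from GENCODE M21. Tested genes of the set had between 15 and 712.9 counts in a library (median 168), which limits precision at low levels. No 2 libraries of a group were duplicates (chi-square over its degrees of freedom 5.42 to 17.5). Alternatives used DESeq2 1.42.0 and limma 3.58.1. The edgeR script was tested on simulated data, where it recovered most changed genes but the share of false calls was above the threshold of 0.05. The gene set and lists were chosen with earlier results of these data known. All genes of the set are given, with further repair genes named by the smallest p, up to 6 per direction; some items of these lists are not reported here.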

Additional observations from a re-analysis of the deposited data

How the results depend on the processing

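The direction of all 8 falls and of the rise of Atm held in each of the 15 alternative fits that tested them. Of the 8 falls 5 (Fancd2, Brca1, Rad51ap1, Rad54l and Exo1) kept their call in every fit that tested them. Rad51ap1 and Rad54l were tested in all 15, and Fancd2, Brca1 and Exo1 in 14, since the FPKM minimum of 5 left them out. The number of lower repair genes was 8 in the edgeR fit and 5 to 11 in fits without 1 library. With an FPKM minimum of 5 it was 2 of 25 tested, beside 780 of 7858 over all genes in that fit. The larger share of falls among repair genes (19% beside 8.77%) was thus not seen with that minimum, where fewer genes were tested. The median of log2 fold changes moved there from -0.3 to -0.14 (-0.36 to -0.25 without 1 library). The number higher was 1, 2 by DESeq2 or without a filter (Atm and Ercc2), 0 by limma with a pseudocount of 1 or 0.1, and 0 to 1 without 1 library. Of the further repair genes, 9 were lower, 8 of 59 with the filter on the mean and 5 to 11 without 1 library. With the FPKM minimum of 5 it was 5 of 50, near the share over all genes in that fit (780 of 7858). Of the further repair genes 2 were higher, 0 by limma with either pseudocount, 1 with the replicate block and 0 to 2 without 1 library. Over all genes 342 were higher (84 to 480 without 1 library) and 955 lower (517 to 1082). Beyond the number of genes or samples in a fit, the causes of these differences were not tested. Deviations from the group mean hardly correlated between WT and ID2KO libraries of the same replicate number (0.118, 0.075 and -0.03). With 3 libraries per group this cannot exclude that the numbers pair the samples. With the replicate block 8 repair genes were lower and 1 higher. On log2(FPKM + 1), falls of genes with low ID2KO levels shrink, as for Exo1 (-1.3), Fancd2 (-1.34), Brca1 (-1.15) and Rad54l (-2.16).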
